A study of Mus musculus with 24 samples.

Results

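The Agilent mouse array used for these samples carries, beside its probes for annotated genes, probes that are named only by a stretch of the genome. Each name gives a chromosome, a start and an end, and no gene symbol. All but 13 of the names also give a strand letter, F or R. Members were selected on detection: a non-control probe with such a name was kept when the scanner software marked its spot as well above background on at least 4 of the 24 arrays. This rule kept 7889 of the 16194 probes named by region, among 55681 non-control probes in all. The members lie in 2693 of the 3543 named regions and on all autosomes and the X chromosome, from 181 members on chromosome 19 to 550 on chromosome 1. Coordinates are those of the probe names, in mouse build mm9 (NCBI build 37), per the file headers. Whole-lung RNA came from C57BL/6 mice at postnatal day 1 (n = 5), day 4 (n = 5), day 7 (n = 5), day 14 (n = 5) and 6 weeks, written here as day 42 (n = 4). No treatment or genetic change is given for any group. The labels call the arrays of an age biological replicates and do not say whether an array holds 1 animal or a pool, nor the sex of the mice.

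Large intergenic noncoding RNAs are transcripts that are spliced and polyadenylated like messenger RNAs but carry no long reading frame. They are known to be lower in abundance than most messenger RNAs and to vary more between tissues and stages. Some act on genes of their own neighbourhood, as the noncoding RNAs of imprinted domains do, and others act elsewhere in the nucleus or cytoplasm. A probe named by region reports RNA from 1 strand of that stretch, and it cannot by itself tell a separate noncoding transcript from an unannotated end of a nearby gene. The mouse lung is born with simple saccules, forms alveoli over the first postnatal weeks, and thins its septa and capillaries before adulthood. Cell division in the lung is known to fall over this period, and immune cells are known to enter.

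The labelled tissue was checked against its markers. All 15 lung markers examined were well above background on 24 of 24 arrays, among them Sftpc of alveolar type 2 cells, Ager of type 1 cells, Scgb1a1 of airway cells, Pecam1 of endothelium, Col1a1 of mesenchyme and Ptprc of leukocytes. Markers of other tissues were present as well. The heart gene Myh6, the liver genes Alb and Apoa2 and the red-cell gene Alas2 were well above background on 24 of 24 arrays. So was the mesothelial gene Upk3b. Of the genes listed for thymus, Dntt was well above background on 24 arrays, Cd8a on 23 and Rag1 on 11. In whole-lung RNA, fewer cells of a type and less RNA per cell cannot be told apart. Signal varied: the 75th percentile of processed signal ran from 476.1 to 1653 units. In the members' values, 5 arrays stood apart on the first principal component, which held 60.8% of the variance. They comprised replicates 4 and 5 of day 1, replicates 1 and 3 of day 4 and replicate 4 of day 42, at -93.37 to -119.2 against -3.41 to 46.23 for the others. The second component, with 12.8% of the variance, set days 14 and 42 at -28.19 or below and the other ages at 3.81 or above. Day 14 replicate 5 was the exception, at 4.67, on the side of the younger ages.

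Region probes were detected less often than other spots on every array, and 1 array stood above the rest. Of the 16194 region probes, 3353 were never well above background, 3500 were so on all 24 arrays, and the others varied. On 23 arrays, between 26.33% and 46.9% of region probes were well above background. On day 14 replicate 3 the share was 70.9%, against 41.54% to 46.9% on the other day 14 arrays. Replicates are numbered by sample title here; the source label of the array titled day 14 replicate 4 also gives number 3, and that array was at 46.9%. The 5 arrays named above had 26.33%, 31.17%, 32.75%, 27.39% and 30.84%. Spots with other names ran from 59.51% to 83%, with the highest share on the same day 14 array. Among the 3624 region probes well above background on exactly 1 array, 2885 were on day 14 replicate 3. Both strands were represented on the array by 1067 regions. A probe of each strand was well above background in 962 of them (90.2%) on that array, and in 421 to 689 on the others. At the edge of the rule, 252 probes were well above background on exactly 4 arrays and 364 on exactly 3. Their median mean levels were -6.1 and -6.35, where a level is log2 of the processed signal minus the 75th percentile of its array.

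**Figure D1:**
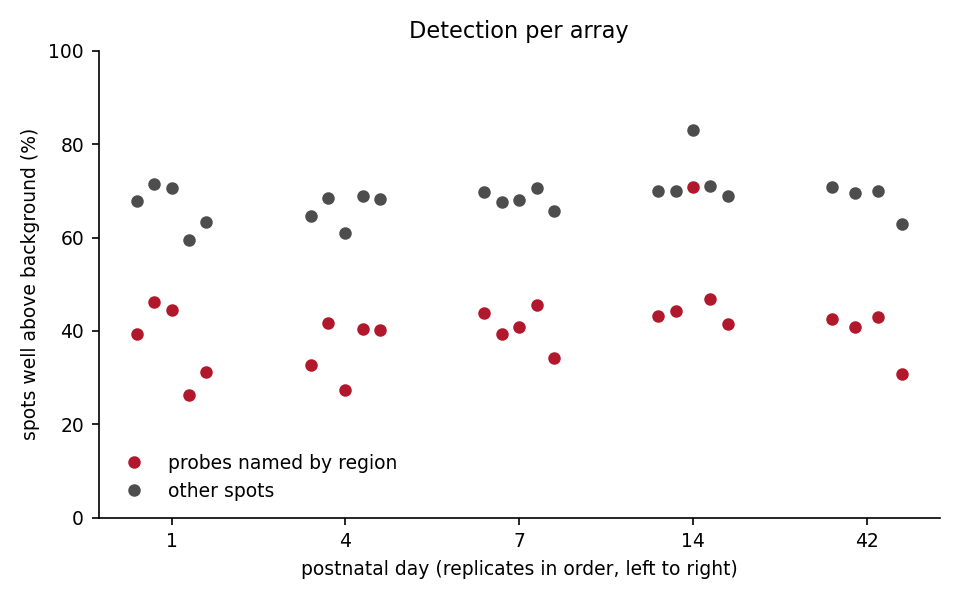
Share of spots well above background on each of the 24 arrays (y axis, percent), by postnatal day (x axis), for the 16194 probes named by region and for spots with other names; each point is 1 array. Region probes lie between 26.33% and 46.9% on 23 arrays and at 70.9% on day 14 replicate 3.

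Over the 5 ages, 1355 of 7866 members with a usable spot on every array (17.2%) differed between at least some ages, in 751 regions. This was an F-test in limma with an adjusted p under 0.05 (Benjamini-Hochberg over all 36467 probes tested), and probes past that threshold are said to be called. The share of all probes called was 26.2%. Members that passed the detection rule only through the ages where they were bright were in part chosen for a difference, so the share was also taken within detection classes. Of the 3492 members tested that were well above background on all 24 arrays, 638 (18.3%) were called, against 28.6% of the other probes detected as widely. Among members detected on 4 to 7 arrays the share was 17.4%, against 28.8%. Strand made no visible difference: 17.2% of F members and 17.2% of R members were called. By chromosome, the share ran from 9.76% on chromosome 4 to 24.8% on chromosome 17.

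Most calls were made between days 7 and 14 and over the whole span, which does not rank the sizes of the differences. Mean differences of a log2 of 1 or more were found in 16.5% of members between days 4 and 7 (all probes, 10.4%). The share was 6.9% between days 7 and 14 (all probes, 9.23%) and 13.5% over the whole span (18.3%). Day 4 against day 1 gave 3 called members, all lower at day 4 and all from 1 region on chromosome 7, where 0.0247% of all probes were called (0.011% higher and 0.0137% lower). Day 7 against day 4 gave no called member by limma, where 0.00548% of all probes were called (0% higher, 0.00548% lower), with 1274 members at an unadjusted p under 0.05. Between days 7 and 14, 400 members of 263 regions were called (8.66% of all probes). Of these 261 were higher at day 14 (4.81% of all probes were) and 139 lower (3.85%). Between days 14 and 42, 167 were called (2.76%), 30 higher at day 42 (1.24%) and 137 lower (1.51%). Across the span from day 1 to day 42, 1028 members of 579 regions were called (21.7%), 424 higher at day 42 (10.1%) and 604 lower (11.5%). In each of the last 3 comparisons the members' share, 5.09%, 2.12% and 13.1%, was below that of all probes. Only 9 members were highest (0.14% of all probes) and 4 lowest (0.0932%) at an intermediate age by a log2 of 1 or more against both day 1 and day 42.

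The direction of most calls between days 7 and 14 depended on how arrays were put on 1 scale, while between days 14 and 42 most calls were lower in each setting given here. Between days 7 and 14 the members' median difference was 0.17 on the log2 scale (all probes, 0.06), and 261 of the 400 called members were higher. With quantile normalization the median was -0.02 and 144 of 401 were higher; with median scaling, -0.02 and 94 of 291; in the authors' deposited table, -0.03 and 219 of 576. Between days 14 and 42 the median was -0.23 (all probes, -0.04) with 30 of 167 higher, against 51 of 143, 35 of 80 and 85 of 244 in the same 3 settings. Without day 14 replicate 3, 270 members were called between days 7 and 14, of which 145 were higher. Without the 5 arrays that stood apart, 2016 were called in that step, 1418 of them higher, and 2022 between days 1 and 42, 796 of them higher. Median scaling moved the median of all probes to -0.13 in the first of these steps and to 0.2 in the second. Between days 1 and 42, 415 of 1004 were higher with quantile normalization, 337 of 857 with median scaling and 483 of 1198 in the authors' deposited table. Normexp background correction gave other splits, with 169 of 729 higher between days 1 and 42, 97 of 183 between days 7 and 14 and 16 of 68 between days 14 and 42. Within the 3 slides, the median member difference between days 7 and 14 was 0.11, 0.09 and 0.16, and that between days 1 and 42 was -0.26, -0.09 and 0.13. The last value sets 1 array against 1: day 42 replicate 4, which stood apart, against day 1 replicate 3, which did not. Of the 1355 members called over all ages, 419 (30.9%) had their highest mean at day 14, against 14.4% of all called probes. That share was 20.7% without day 14 replicate 3, 16.4% with quantile normalization and 11.2% with median scaling. It was 33.6% without the 5 arrays, 40.2% without these and day 14 replicate 5, and 33.2% with array weights. The lowest mean was at day 42 in 558 (41.2%), against 32.8% of all called probes. The members' share was between 37.2% and 49.5% in the other settings examined.

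**Figure D2:**
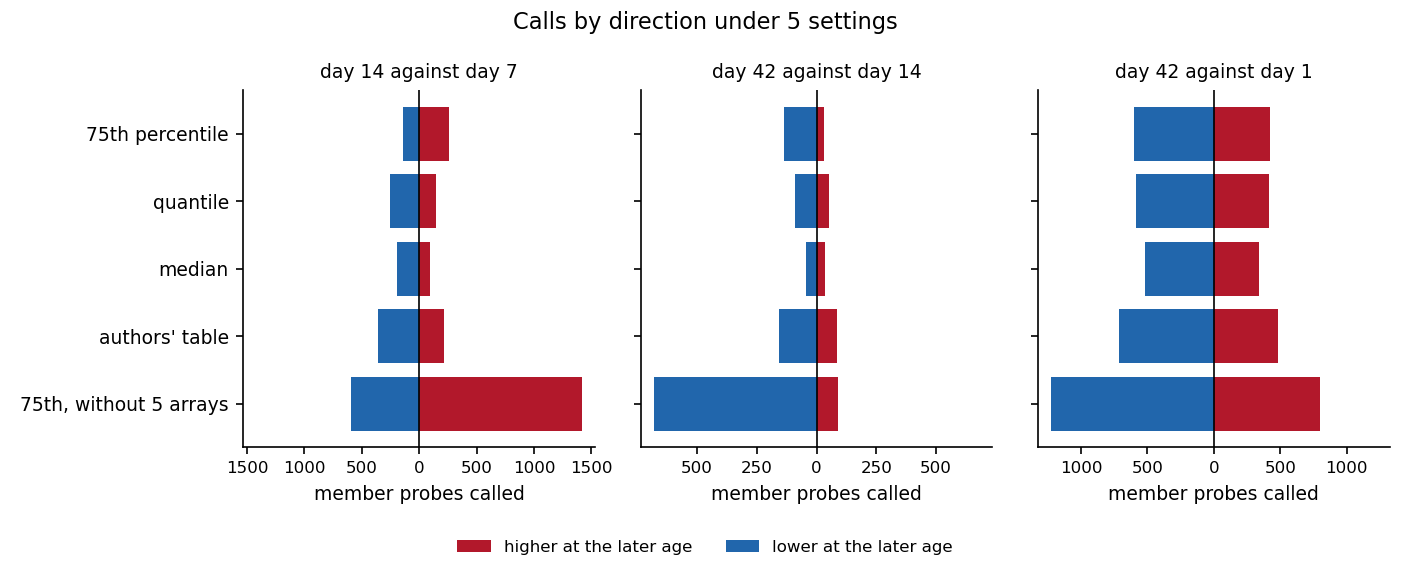
Number of member probes called higher (right, red) or lower (left, blue) at the later age in 3 comparisons, under 5 settings; the x axis counts probes. Between days 7 and 14 the 75th-percentile scale gives 261 higher of 400 and quantile normalization 144 of 401, while between days 1 and 42 they give 424 of 1028 and 415 of 1004.

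The members that fell most included a group whose levels moved as those of cell-division genes did. On strand R of chr17:34018371-34019394, a region of 1024 bases, all 3 tested probes fell, while 2 other R probes of the same locus rose. Probe A_30_P01019819 measured 0.83, 0.56, 0.48, 2.26 and 1.71 on the 5 day 1 arrays and 0.74, 0.17, 0.62, -0.46 and -0.06 at day 4. It measured -0.45, -0.84, -0.26, -0.7 and -0.18 at day 7. At day 14 it gave -3.23, -3.54, -3.26, -3.24 and -1.12, and at day 42 -2.56, -3.1, -3.08 and -1.66. Every array of days 14 and 42 was below every array of days 1 to 7, and day 14 replicate 5 lay nearest to them. The fall from day 1 to day 42 was -3.77 ± 0.44 (log2, SE; adjusted p = 1.4e-06 in limma), and that from day 7 to day 14 was -2.39 ± 0.42 (adjusted p = 0.00065). Without the 5 arrays the day 42 difference was -3.54.

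The likeness to named genes was measured as the root mean square difference between centred log2 levels over the 24 arrays, among 20814 gene-named probes tested. These arrays share ages and slides, and the measure says nothing of shared control. For A_30_P01019819 the 3 closest genes were Kifc5b (0.0714), Kif22 (0.103) and Cdca8 (0.104), which encode kinesin motors and a subunit of the chromosomal passenger complex. The probe's own root mean square deviation from its mean was 1.69. Kifc5b lies on chromosome 17 too, in the RefSeq table.

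On strand F of chr10:117021051-117038683 all 5 tested probes of the region fell, with a median of -3.66. Probe A_30_P01029964 measured 0.05, -0.16, -0.18, 1.49 and 0.97 at day 1, and 0.08, -0.5, -0.05, -1.2 and -0.86 at day 4. It measured -1.18, -1.68, -0.99, -1.52 and -0.92 at day 7, then -4.24, -4.29, -4.02, -4.06 and -1.79 at day 14 and -3.27, -3.53, -4.03 and -2.31 at day 42. Its groups at days 1 and 42 did not overlap, and its day 14 replicate 5 lay above every day 42 array. It fell by 3.72 ± 0.46 (SE) from day 1 to day 42 (limma, adjusted p = 3e-06), and its closest genes were Kif22 (0.106), Cdca8 (0.124) and Kifc5b (0.131). The other strand of that region had a median of -0.54 with 1 of 5 probes called.

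Probe A_30_P01033054, on strand F of chr5:35893909-35899497, measured 1.04, 0.76, 1.03, 2.48 and 2.06 at day 1, 1.18, 0.41, 1.1, 0.16 and 0.35 at day 4, and between -0.43 and 0.09 at day 7. At day 14 it measured -2.59, -2.62, -2.73, -2.66 and -0.89, and at day 42 -2.01, -2.4, -2.65 and -1.3. It fell by 3.56 ± 0.39 (SE; limma, adjusted p = 5.4e-07) and lay closest to Birc5 (0.122), Foxm1 (0.126) and Plk1 (0.144). These encode a passenger-complex subunit, a transcription factor of the G2 and M phases and a mitotic kinase. The 2 tested R probes of this region differed by -0.32 and 0.24 and were not called.

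Further regions also fell by day 42, by less, and not all with the same course. Loci were formed by merging regions with a called probe within 100 kb, and the lead probe of each with 7 or more called probes was chosen after values were seen. At chr5:137392195-137426421 all 9 F probes were called, all lower, with a median difference of -1.58 on F and -0.19 on R, where none of 5 was called. Its lead probe A_30_P01025309 fell by 1.79 ± 0.24 (SE; limma, adjusted p = 9.6e-06) and lay closest to Tonsl (0.169), Hirip3 (0.172) and Mcm7 (0.177), which act on replicating DNA or on histones; Mcm7 lies on chromosome 5 too. On chr17:95149413-95174473 (F) probe A_30_P01017632 had a mean of 0.65 at day 1, -0.04 at day 4 and 0.65 at day 7. Its mean was -1.34 at day 14 and -2 at day 42. The probe measured 1.04, 1.69, 1.96, -0.85 and -0.58 at day 1, lowest on replicates 4 and 5, where A_30_P01019819 was highest. It lay closest to the mitotic genes Aspm (0.179), Cenpk (0.188) and Ect2 (0.209). Its fall of 2.66 was called with all ages in the fit (limma, adjusted p = 0.0047) and not with days 1 and 42 alone (adjusted p = 0.058). Probe A_30_P01026091 on chr6:116123643-116124550 (F) was at 6.17 ± 0.34 (SD, n = 5) at day 1 and 4.6 ± 0.09 (n = 4) at day 42, and lay closest to H2az1 (0.101), which encodes a histone variant. Whether any of these probes also binds RNA of near-identical copies was not tested, since probe sequences were not used here.

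Among the probes named by rule and detected at both ages, the largest fall was on strand R of chrX:50400250-50410825, a region of 10576 bases. Probe A_30_P01021240 measured 1, 1, 0.55, 0.01 and 0.34 at day 1 and -0.57, 0.09, -1.24, -0.31 and -0.65 at day 4. It measured 1.17, 0.8, 0.56, 0.71 and 0.06 at day 7. At day 14 it gave -3.79, -4.16, -4.56, -4.42 and 0.58, and at day 42 -4.45, -5.24, -3.32 and -3.88. Thus 4 of the 5 day 14 arrays were as low as day 42, and replicate 5 was as high as day 7. The difference between days 42 and 1 was -4.8 ± 0.7 (SE; limma, adjusted p = 2.1e-05). That between days 14 and 7 was -3.93 ± 0.66 (adjusted p = 0.00045).

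Of the 6 R probes in that region 5 were called, from -2.35 to -4.86, and the sixth differed by -0.19. Probes A_30_P01020069 and A_30_P01024920 were well above background on 5 of 5 arrays at days 1, 4 and 7 and on none of 4 at day 42. Their falls from day 1 were therefore at least 14.1-fold and 11.8-fold on the scale used here. Each bound takes for each day 42 array the higher of its lowest signal well above background and the probe's own. The F strand fell as well, with 4 of 6 probes called and a median of -0.85. The closest genes to A_30_P01021240 were Pappa2 (0.565), a protease of insulin-like growth factor binding proteins, Zfp536 (0.732) and Tnc (0.741), an extracellular matrix protein. The probe's own deviation was 2.2.

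A probe of another region lost detection by adulthood. On strand R of chr1:160888257-160910594, A_30_P01030585 measured -2.29, -2.29, -2.17, -2.23 and -1.65 at day 1. It stayed between -2.72 and -3.34 at days 4 and 7. At day 14 it measured -6.92, -7.54, -4.16, -6.71 and -3.06, where replicates 3 and 5 were the 2 arrays well above background. It was well above background on none of 4 arrays at day 42, and it was chosen among called probes for that loss. The fall from day 1 was at least 11.5-fold on the scale used here. Over the other settings examined the log2 difference ran from -5.36 to -1.91. Its closest gene was Cdc25c (0.482), a phosphatase of mitotic entry.

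The locus with the most called probes was chr12:110842149-110988678, where 9 regions with a called probe lay within 100 kb of one another. There 20 of the 21 called probes were lower at day 42 and 1 was higher, with medians of -1.08 on F (23 probes) and -1.16 on R (16 probes). Probe A_30_P01026799 measured -0.98, -0.96, -1.02, -3.33 and -2.17 at day 1 and -2.75, -1.56, -2.56, -1.24 and -1.36 at day 4, where the low values are those of the arrays that stood apart. It measured -1.04 to -1.56 at day 7, -2.18 to -3.63 at day 14 and -3.83, -3.96, -4.88 and -6.06 at day 42. Its fall of 2.99 ± 0.49 (SE; limma, adjusted p = 8.8e-05) was 3.24 without the 5 arrays. The closest gene was Mkx (0.307), on chromosome 18. The second-closest was Meg3 (0.33), a maternally expressed noncoding RNA gene that the RefSeq table places on chromosome 12. In the same fit the Meg3 probe fell by 2.97 ± 0.47 (adjusted p = 5e-05), and that of Mirg, a noncoding RNA gene of the same imprinted domain, by 3.05 ± 0.21 (adjusted p = 1.5e-09). The probe of Dio3os, a further listed gene of that domain, was not called, at 0.08 ± 0.29 (limma, adjusted p = 0.87). Whether the probes of this locus report those transcripts was not tested, since no annotation of build mm9 was used here.

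On chr2:174088550-174109425 the R strand held probes that moved in opposite directions. Of its 5 tested probes 4 fell, with a strand median of -3.25, and 1 rose by 0.77. Probe A_30_P01030153 measured -1.9, -1.4, -1.25, -4.43 and -3.91 at day 1, and between -2.22 and -2.61 at day 7. At day 14 it measured -5.38, -5.71, -4.83, -5.65 and -3.25, below every day 7 array. The step from day 7 to day 14 was -2.49 ± 0.61 (SE; limma, adjusted p = 0.011) and -2.92 without day 14 replicate 5. Probe A_30_P01020699 on chr6:133054025-133069850 (R) took the same step, with -0.07 to -0.86 at day 7, -3.15 to -3.83 on 4 day 14 arrays and -1.08 on replicate 5. It fell by 2.43 ± 0.43 (adjusted p = 0.00077).

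Other falling loci differed in how many of their probes were called. On chr10:83181374-83249774 all 7 called probes were on F, with a median of -2.06, and the R strand was at 0.41 with none of 3 called. Its lead probe A_30_P01024970 fell by 2.82 ± 0.32 (SE; limma, adjusted p = 9.1e-07) and lay closest to Loxl2 (0.237), which crosslinks collagen. In the chr17:35080914-35090009 region 3 of 7 F probes and 6 of 7 R probes fell, with an F range of -1.59 to 0.21, and its probe A_30_P01022237 lay closest to 1110038B12Rik (0.117), on chromosome 17 as well. The chr1:183783306-183834531 and chr5:120253747-120281800 loci held called probes on both strands, 9 and 8 in all, each of them lower. Of A_30_P01031061, the lead probe of the first, the call was lost with days 1 and 42 fitted alone (adjusted p = 0.14 in limma).

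**Figure D3:**
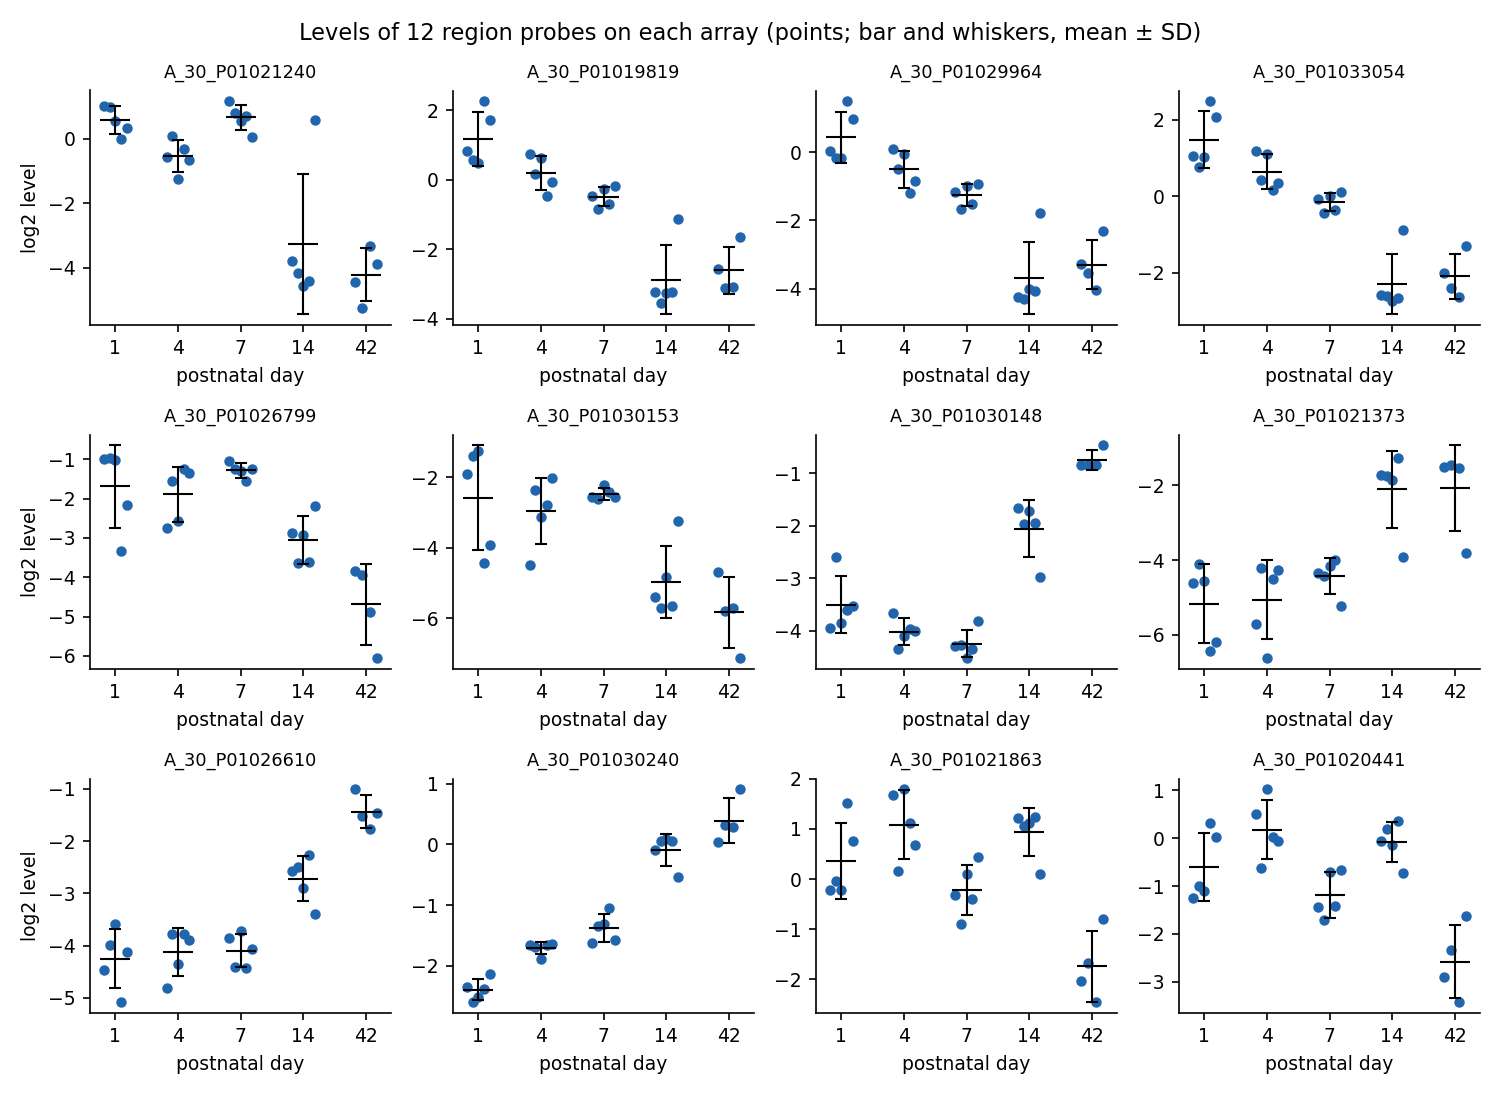
Log2 level of 12 region probes on each array (points) by postnatal day, with the mean and SD of each age as a bar with whiskers; a level is log2 processed signal minus the array's 75th percentile. The first 6 panels fall and the next 4 rise by day 42, with day 14 replicate 5 (rightmost day 14 point) nearest to the younger ages in the first 4, and the last 2 are lowest at day 42.

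Rises were led by a stretch of chromosome 6. At chr6:31007184-31293337, 8 regions with a called probe held 20 called probes, all higher at day 42, of 12 tested on each strand. The medians were 2.67 on F and 2.42 on R. Probe A_30_P01030148, on F of chr6:31233512-31241062, measured -3.96, -2.59, -3.85, -3.61 and -3.53 at day 1 and -3.66 to -4.36 at day 4. It measured -4.29, -4.28, -4.53, -4.35 and -3.82 at day 7. It then gave -1.66, -1.97, -1.71, -1.95 and -2.98 at day 14 and -0.84, -0.84, -0.84 and -0.46 at day 42. Its arrays at days 14 and 42 overlapped neither each other nor any day 7 array. The steps were 2.19 ± 0.25 from day 7 to day 14 (SE; limma, adjusted p = 2.7e-05) and 1.31 ± 0.27 from day 14 to day 42 (adjusted p = 0.0074). Its closest gene was Igfbp3 (0.329), which binds insulin-like growth factors.

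A probe on strand R, from another region of that locus, had another course. Probe A_30_P01021373, on chr6:31115515-31168433, measured -4.6, -4.09, -4.55, -6.42 and -6.19 at day 1 and -4 to -5.24 at day 7. At day 14 it measured -1.73, -1.75, -1.87, -1.27 and -3.91, and at day 42 -1.5, -1.45, -1.55 and -3.8. It rose by 2.32 ± 0.59 between days 7 and 14 (SE; limma, adjusted p = 0.013), and the change from day 14 to day 42 was 0.03 ± 0.62 (adjusted p = 0.99). The low values at days 14 and 42 are replicates 5 and 4. Its closest gene was Cd69 (0.357), a marker of activated lymphocytes. The F and R probes described come from different regions, so strand and region cannot be told apart. Whether their difference in course exceeds error was not tested.

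The leukocyte markers Ptprc and Lyz2 were higher in mean at day 42 than at day 1, with Ptprc at -1.36, -1.33, -0.42, 0.59 and 0.8 at the 5 ages and Lyz2 at 3.27, 3.18, 2.83, 4.22 and 4.65. At chr1:175653557-175717250 all 14 called probes were on R, of 16 tested there, with a median of 2.15. The F strand had 2 tested probes and no call. Probe A_30_P01021597 of this locus went from -3.31 ± 0.94 (SD, n = 5) at day 1 to -0.77 ± 0.13 (n = 4) at day 42 and had as its closest genes Ripor2 (0.471), Cd48 (0.475), a leukocyte surface protein, and Ifi208 (0.478), an interferon-induced gene, both on chromosome 1 as well. In the neighbouring A_30_P01022549 the rise of 3.42 ± 0.92 (limma, adjusted p = 0.0086) was 2.49 without the 5 arrays. It was not called with days 1 and 42 alone (adjusted p = 0.12). On those 5 arrays it measured -6.46, -6.99, -4.37, -4.19 and -3.06. Its closest genes were Ogn (0.52), a matrix proteoglycan, and Hnmt (0.545), a histamine-degrading enzyme.

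Probe A_30_P01020902 on F of chr10:93774693-93893616 measured -2.16, -1.57, -1.48, -5.5 and -4.24 at day 1 and -0.07 to -1.07 at day 7. It measured 0.51 to 1.35 at day 14 and 1.32, 1.27, 1.21 and -1.24 at day 42. It rose by 3.63 ± 0.77 (SE; limma, adjusted p = 0.0012), or 3.01 without the 5 arrays, and lay closest to Ms4a4b (0.499) and Clec9a (0.532), a receptor of dendritic cells. The part of the leukocyte markers in these rises was not tested.

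Single-stranded rises were found at 2 further loci. On chr11:53592946-53672731 all 8 R probes rose, with a median of 2.55, and none of the 3 F probes was called. Its probe A_30_P01030240 measured -2.35, -2.6, -2.51, -2.38 and -2.14 at day 1 and -1.64 to -1.89 at day 4. It measured -1.63, -1.34, -1.31, -1.05 and -1.57 at day 7, -0.1, 0.06, 0.09, 0.05 and -0.54 at day 14, and 0.05, 0.31, 0.29 and 0.91 at day 42. The groups at days 1 and 42 did not overlap, and the rise of 2.78 ± 0.18 (SE; limma, adjusted p = 1.1e-09) was 2.7 without them. It lay closest to Cyp27a1 (0.25), a sterol hydroxylase. At chr17:84350367-84486339 all 8 R probes rose, with a median of 2.56, while 1 of 5 F probes was called and was lower. Probe A_30_P01026610 there was between -3.59 and -5.08 at day 1, between -3.72 and -4.43 at day 7, between -2.27 and -3.39 at day 14 and between -1.01 and -1.77 at day 42.

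Some rises had no signal at day 1. Probe A_30_P01024506 on F of chr14:43418592-43428090 was well above background on none of 5 arrays at day 1 or day 4, on 1 at day 7, on 5 at day 14 and on 4 of 4 at day 42. On the scale used here it rose at least 6.74-fold from day 1 to day 42. Over the other settings examined its log2 difference ran from 1.17 to 3.9, so the bound does not hold in all of them. Probe A_30_P01021684 on F of chr1:134245856-134246607 was detected on 4 of 5 arrays at day 14 and 4 of 4 at day 42, and on none before. The rise was at least 3.34-fold on the scale used here, with log2 differences of 0.988 to 4.46 over the other settings. Day 14 replicate 5 was the array without it, at -7.21.

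At chr8:122807653-123008463 8 of 15 F probes fell, with a median of -0.72, and none of 7 R probes was called. In most of the remaining loci with 7 or more called probes the calls were higher at day 42. At chr10:69669025-69686275 all 7 F probes rose, with a median of 1.91, and A_30_P01017637 of this locus went from -3.57 at day 14 to -2.28 at day 42, a rise of 1.29 ± 0.17 (SE; limma, adjusted p = 8.4e-05). It lay closest to Sfrp4 (0.273), a Wnt antagonist. Locus chr10:69669025-69686275 also held A_30_P01019232, which rose by 2.36 from day 1. At chr19:5771425-5848475 7 of 12 F probes rose, and A_30_P01019135 rose by 2.28 ± 0.52 (adjusted p = 0.0025). In the same fit the Neat1 probe, of a nuclear noncoding RNA gene, rose by 1.99 ± 0.58 (adjusted p = 0.015). At chr16:4867322-4874772 6 F and 2 R probes rose, led by A_30_P01021453 at 2.48. At chr17:15100982-15250333 5 F and 4 R probes rose, and A_30_P01026036 there rose by 1.4 and lay closest to Acot11 (0.176). Smaller rises were those of chr19:53517903-53540753, with A_30_P01024775 at 1.43, and chr8:119732348-119749198, with A_30_P01018462 at 0.97, a call lost with days 1 and 42 alone (limma, adjusted p = 0.13). At chr5:149751979-149808240 and chr14:65430484-65437902 some probes rose and 1 fell: A_30_P01025480 rose by 1.46, and A_30_P01019885 fell by 1.4. With normexp the first was at 0.43 and was not called (limma, adjusted p = 0.32).

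Between days 14 and 42 the 5 largest falls were all on strand F, and in 2 of them a red-cell gene was among the 4 closest. On F of chr10:69819062-69871640, A_30_P01021863 measured -0.22, -0.04, -0.21, 1.52 and 0.76 at day 1 and 1.67, 0.16, 1.79, 1.12 and 0.67 at day 4. It measured -0.32, -0.9, 0.1, -0.39 and 0.43 at day 7, 1.21, 1.06, 1.11, 1.24 and 0.09 at day 14, and -2.03, -1.67, -2.45 and -0.8 at day 42. Every day 42 array lay below every day 14 array, and the difference was -2.68 ± 0.41 (SE; limma, adjusted p = 0.00055). Its 4 closest genes were Slc6a20a (0.1), Otop1 (0.121), S100a5 (0.184) and Alas2 (0.208), the first enzyme of haem synthesis in red-cell precursors. On F of chr15:8463685-8494960, A_30_P01020441 had Otop1 (0.108), S100a5 (0.154) and Alas2 (0.225) as its closest genes and fell by 2.51 ± 0.39.

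The other 3 probes fell by 2.47, 2.39 and 2.59. They are A_30_P01022689 on chr8:106037800-106070025, A_30_P01032868 on chr2:77146893-77155643 and A_30_P01023143 on chr8:122807653-122823000, all on F. Of A_30_P01023143, day 7 replicate 2 measured 0.52 where the other day 7 arrays measured -2.41 to -3.3. The red-cell marker Alas2 had means of 5.46, 6.03, 4.92, 5.76 and 3.4 at the 5 ages, and Hba-a1, a haemoglobin gene, 9.32, 9.34, 8.88, 9.03 and 8.45. Of the 3 red-cell markers listed, 2 had a usable named probe, and none of these was at 0. Their part in the falls of these regions was not tested.

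The 3 members called between days 1 and 4 were all on F of chr7:91558475-91733625. Probe A_30_P01024322 measured -2.3, -2.67, -2.24, -1.93 and -1.57 at day 1 and -3.01, -3.86, -3.19, -3.86 and -3.58 at day 4, without overlap. It was at -4.24 at day 7, -4.25 at day 14 and -3.25 at day 42 (means). The 3 probes fell by 1.64, 1.56 and 1.36 from day 1 to day 4 (limma, adjusted p = 0.021, 0.031 and 0.05). All 3 were lost with quantile normalization, where their adjusted p were 0.28, 0.1 and 0.28. No member was called in this step when day 1 replicate 4 or 5, or day 4 replicate 2, 4 or 5, was left out alone. They were called without the 5 arrays, at 0.0012, 0.0031 and 0.018. All 3 also met the rule for members lowest at an intermediate age. Their closest genes included Fxyd6, Foxn4, Timp1 and Tgm1, none nearer than 0.393.

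A peak at day 7 was found in neighbouring regions on R of chromosome 13. Probe A_30_P01033166, on chr13:28952570-28953234, measured -5.48, -4.79, -4.21, -6.48 and -6.97 at day 1 and -2.95, -3.01, -3.11, -2.81 and -4.33 at day 7. It measured -3.78 to -4.83 at day 14 and -5.13 to -7.02 at day 42. The smaller of its differences from days 1 and 42 was 2.34 (limma, the larger adjusted p = 0.044), or 1.58 without the 5 arrays. On chr13:28898970-28901714, A_30_P01025552 gave 2 and 1.4 in the same way. Both calls were lost with quantile normalization, at adjusted p of 0.064 and 0.062. Probe A_30_P01024292 on chr14:25562934-25718867 (R) was highest at day 14, by 1.57 and by 1.02 without day 14 replicate 3, when its call was lost (adjusted p = 0.16). Probe A_30_P01026769 on chr3:45081952-45092352 (F) was lowest at day 7, by 1.55 (limma, larger adjusted p = 0.049) and by 0.91 without the 5 arrays. Its call was lost under 23 of 34 alternatives, among them quantile normalization (adjusted p = 0.065).

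Probes within a region strand share a target and are not replicates. Among 1260 region strands with 3 or more tested members, 358 had at least 1 probe called between days 1 and 42. In 61 of these every probe was called, 29 times higher and 31 times lower, with 1 mixed. In 229 every probe had the same sign, in 175 only 1 probe was called, and in 6 probes were called in both directions. Merged within 100 kb, the 1028 called members formed 448 loci. Of these 236 held 1 called probe and 72 held 4 or more, with 455 called probes in the 72. All called probes were higher in 28 of the 72 loci, lower in 33 and mixed in 11.

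**Figure D4:**
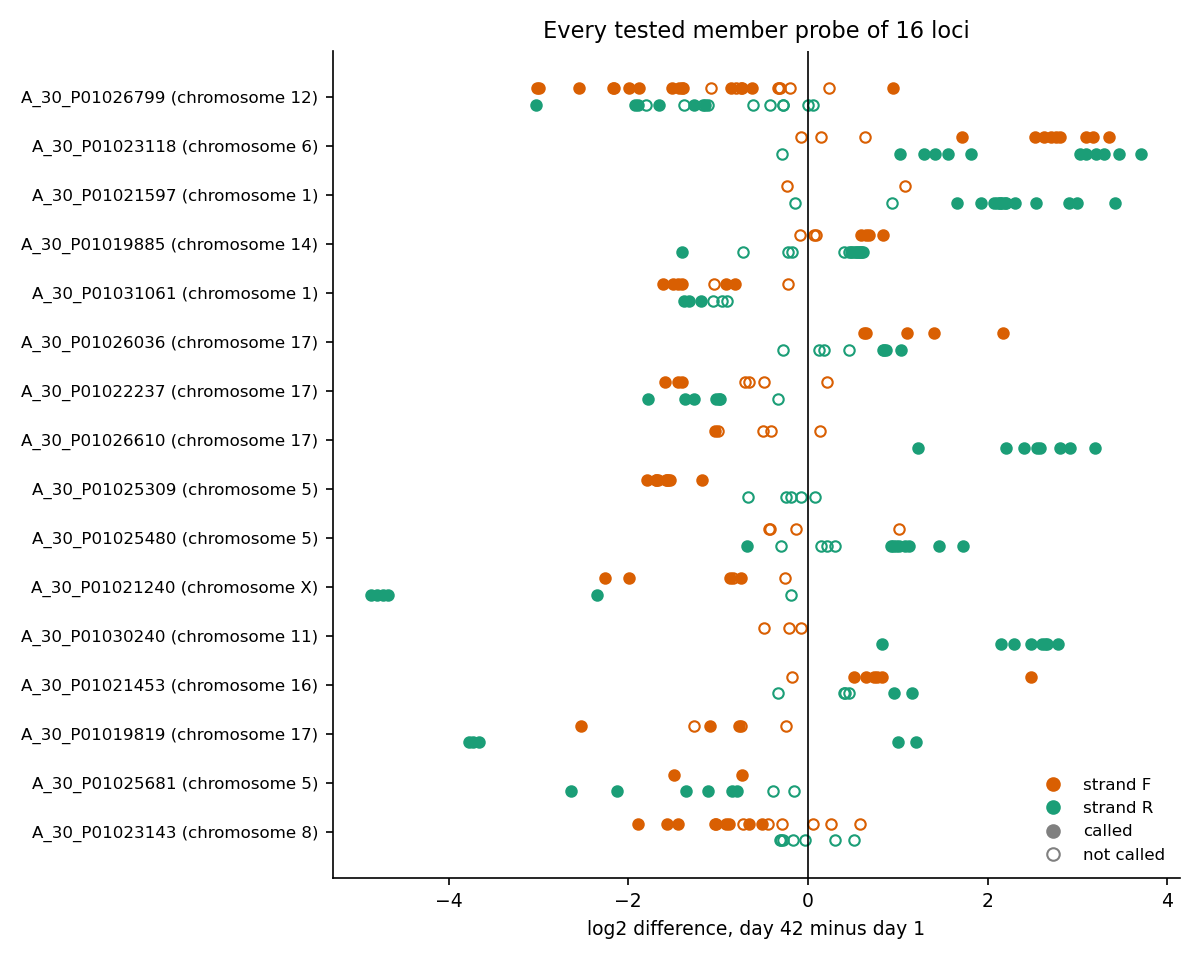
Log2 difference between day 42 and day 1 (x axis) of every tested member probe in the regions of the 16 loci with 8 or more called probes, 1 row per locus named by its lead probe and chromosome; orange is strand F, green strand R, filled points are called. The chromosome 6 locus is filled on both strands to the right of 0, the chromosome X locus reaches -4.86 on R, and the chromosome 11 locus is filled on R alone.

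Calls were set side by side for the 2 strands of a region, and the difference between strands was not tested. Of 700 regions with tested members on both strands, 77 had a call between days 1 and 42 on F alone, 114 on R alone, 46 on both and 463 on neither. Where both strands were called, 37 had the same direction on each and 9 had opposite calls. Across the 700 regions, which share the same arrays, Pearson's r of the strand medians was 0.233 and Spearman's rho 0.232, given as a description. The largest gap was that of chrX:50400250-50410825, at -0.85 on F and -4.7 on R. The next were chr5:35893909-35899497, at -3.56 and -0.04, chr6:31267612-31293337, at 2.9 and -0.29, and chr1:175705225-175717250, at -0.24 and 2.91. No header explains whether F and R name the strand of the transcript or of the probe.

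**Figure D5:**
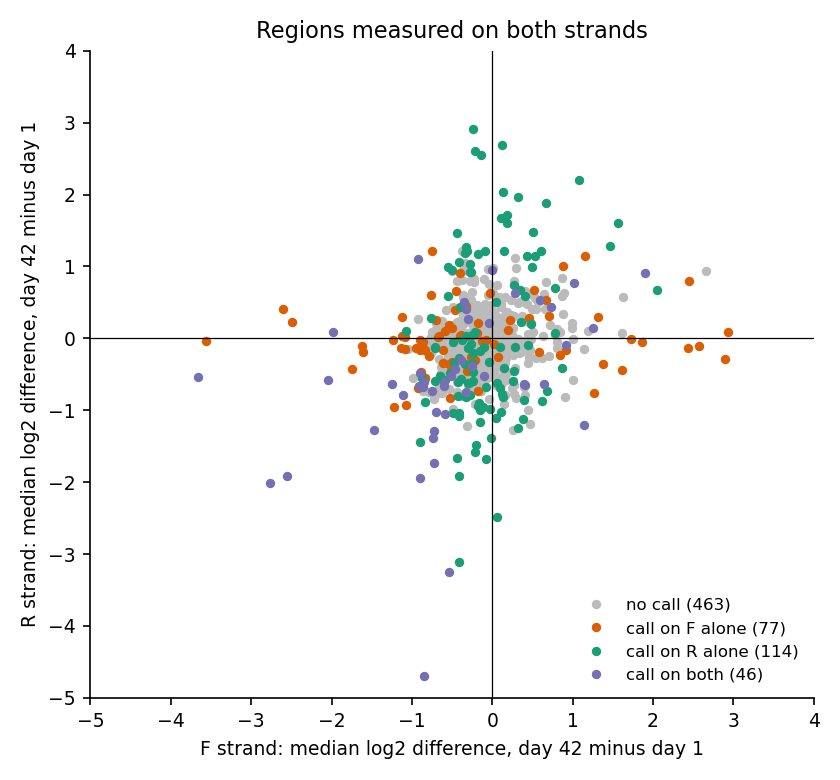
Median log2 difference between day 42 and day 1 over the tested member probes of each strand, F on the x axis and R on the y axis, for the 700 regions with tested members on both; colour shows which strand holds a called probe. Most coloured points lie along an axis rather than on the diagonal, with 77 called on F alone, 114 on R alone and 46 on both.

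The 3 regions with the most members held few called probes. On chr16:43623581-43642715, with 18 members, 1 of 8 R probes was called, higher at day 42. All 10 F probes of the region had a higher mean at day 42 than at day 1, by 1.35 to 2.52, with a median of 2.05, and none was called. Its probe A_30_P01024492 measured 2.38, 3.58, 3.28, -1.02 and -0.33 at day 1, 3.58 to 4 on 4 day 7 arrays, and 4.52, 4.48, 4.6 and 0.73 at day 42. The lowest values at days 1 and 42 were again those of the arrays that stood apart. On chr11:95627874-95640824, also with 18 members, the medians were 0.53 on F and 0.56 on R, with no call. On chr10:126818382-126856582, with 17, they were -0.25 and -0.38, with 1 called probe on each strand, both lower.

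At the other end, A_30_P01023570 on chr10:9322308-9332183 (R) had age means between -2.5 and -2.44, the narrowest spread with A_30_P01021338, A_30_P01020517, A_30_P01020645 and A_30_P01029373 among members detected on all 24 arrays. Its day 42 difference from day 1 was -0.01 ± 0.15 (SE). This choice was made on the spread itself and carries no test.

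Noncoding RNA genes with symbols gave a comparison from the same fit. Of 57 genes on that list 31 were on the array with a RefSeq name and 28 were tested. Between days 1 and 42, 2 rose and 5 fell, with a median of 0.07, against -0.09 over the members and -0.08 over all probes. Those that fell were Meg3, Mirg, Ftx, Snhg6 and Foxd2os, and those that rose were Neat1 and Peg13. Foxd2os, an antisense gene, fell by 1.43 ± 0.22 (SE; limma, adjusted p = 3.4e-05), and Malat1, an abundant nuclear RNA gene, measured 1.1 ± 1 (adjusted p = 0.5). Between days 7 and 14, none rose and 3 fell.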

How the data were processed

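Whole-lung RNA of 24 mouse samples was hybridised to 1-colour (Cy3) Agilent arrays. The deposited scanner files hold intensity values per spot, background-subtracted by Agilent Feature Extraction, with version 10.7.3.1 per the file headers and 10.7.1.1 per the submitters' processing notes. The authors' deposited table holds log2 values, whose normalization is not given in the sources used here. Detection, that is a spot well above background, is the scanner software's flag.

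The members and lists were chosen with earlier results of these data known. Levels are log2 of the processed signal minus the 75th percentile of each array over non-control probes. Probes well above background on at least 4 arrays were fitted in limma 3.58.1 (R 4.3.3), with 1 mean per age over all 24 arrays. P-values were adjusted by Benjamini-Hochberg over the 36467 probes tested; 138 probes flagged on at least 1 array were left out, 23 of them members. A fold bound sets the bright age against the lowest signal well above background. It holds for the levels used here only, not for other background corrections. P-values measure only the spread between these samples, whose number limits the precision. The script was tested on simulated data over those 36467 probes. Between days 1 and 42 it recovered 23% of 2-fold and 80% of 4-fold differences, none in the wrong direction. It also called 6 unchanged probes there. These figures hold for the simulated data only. They are not taken as recovery or error rates for the real arrays, where leaving out the arrays that stood apart changed the counts.

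Probes were named by these rules: per comparison the 5 largest rises and 5 largest falls among called probes whose ages do not overlap and that were detected on at least 3 arrays of each age; the 4 largest of each direction with no detection at day 1 or day 42; up to 4 highest and 4 lowest at an intermediate age; the 3 regions with the most members; the 4 largest strand gaps; and the 5 smallest spreads. Where several probes of 1 region qualified, 1 or 2 are described. Lead probes of loci, and the genes with the closest profile, were chosen after values were seen. Gene symbols were matched through RefSeq accessions, for 26056 of 32335 probes that carry one.

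Same-numbered arrays of different ages were checked for pairing: the correlation of their deviations ran from -0.837 to 0.851 (median 0.0193), so the numbers were not taken to pair them. The smallest root mean square difference between any 2 arrays was 0.354, so none was counted as a duplicate. Alternatives were background correction, scaling, the authors' table, filters, slide and replicate blocks, array weights, compared ages alone and arrays left out. The normexp alternative used the median spot signal and median background. Genome sequence, probe sequences and an annotation of build mm9 were not used here, so neighbouring genes were not placed.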

Additional observations from a re-analysis of the deposited data

Results flagged for a closer look

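In each group of 4 or 5 arrays, the highest or lowest array was compared with the rest by its gap over the group's range. Of 240 groups examined, 33 held an array beyond Dixon's 95% limit, where chance gives about 1 in 20. The share of region probes well above background at day 14 reached 70.9% on replicate 3.

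Day 14 replicate 5 was the distant array in 13 groups. In most of them it was nearer to the younger ages than the other day 14 arrays were. Among probes that fell it was high: A_30_P01021240 was at 0.58 there, A_30_P01019819 at -1.12, A_30_P01029964 at -1.79, A_30_P01033054 at -0.89 and A_30_P01020699 at -1.08. A_30_P01025309 was at -0.82 and A_30_P01024970 at -0.34. Among probes that rose it was low: A_30_P01030148 was at -2.99, A_30_P01021373 at -3.91, A_30_P01024506 at -4.92, A_30_P01021684 at -7.21 and A_30_P01023118 at -2.42. A_30_P01021863 was at 0.0925, within the range of days 1 and 7 but below every day 4 array.

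Day 42 replicate 4, one of the 5 arrays that stood apart, was distant in 8 groups. It measured -0.46 for A_30_P01030148, -3.8 for A_30_P01021373, -1.24 for A_30_P01020902, -3.07 for A_30_P01022549, -2.16 for A_30_P01023118, -6.87 for A_30_P01031061, -2.4 for A_30_P01026036 and -4.18 for A_30_P01019135. Day 7 replicate 5 was distant in 5 groups, at -1.07 for A_30_P01020902, -3.3 for A_30_P01022549, -4.34 for A_30_P01033166, -5.12 for A_30_P01025552 and -0.745 for A_30_P01021453. The others were day 1 replicate 5 for A_30_P01030585 (-1.65), day 7 replicate 2 for A_30_P01023143 (0.515), day 4 replicate 3 for A_30_P01030240 (-1.89), day 1 replicate 4 for A_30_P01019232 (-5.53) and A_30_P01018462 (-1.17), and day 14 replicate 3 for A_30_P01018462 (0.563).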

How the results depend on the processing

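Counts are members called, against 1355 over all ages, 3 between days 1 and 4, 0 between days 4 and 7, 400 between days 7 and 14, 167 between days 14 and 42 and 1028 between days 1 and 42. Over all ages, normexp gave 826, the filter on all 24 arrays 692, array weights 4849, omission of the 5 arrays 2730 and of these and day 14 replicate 5 2951. Between days 1 and 4, normexp, quantile normalization, median scaling, no filter, the slide block, the replicate block and the compared ages alone gave 0, 8 were called in the authors' values, 61 with weights and 17 with the omission of 6 arrays. Between days 4 and 7, weights gave 1546 and the omissions of 5 and 6 arrays 1 and 2. Between days 7 and 14, normexp gave 183, the 24-array filter 210, weights 3648, the omissions 2016 and 2471 and compared ages alone 1464. Between days 14 and 42 the values were 68 with normexp, 80 with median scaling, 100 with the 24-array filter, 1522 with weights, 770 and 769 with the omissions and 52 with compared ages alone. Between days 1 and 42 they were 580, 2392, 2022, 2117 and 441 for the filter, weights, both omissions and compared ages alone. Leaving out each array in turn gave 1099 to 1822 over all ages, 0 to 4, 0 to 0, 251 to 642, 90 to 223 and 781 to 1597 in the 5 comparisons. Without day 14 replicate 5 the step from day 7 gave 642, and without replicates 1, 2 or 4 of day 14 it gave 266, 251 and 252. Without day 42 replicate 1 the last step gave 90, without day 14 replicate 4 110, and without day 42 replicate 4 the whole span gave 1597. The array numbers were not found to pair the samples; with the replicate block the counts were 1175 over all ages and 0, 0, 358, 142 and 875. Of 48 named differences, 35 were called under every alternative run and 13 were lost under at least 1. None of 1702 probe and setting pairs reversed, but these probes were chosen by the naming rules or as lead probes, largely for their size. Of all 1028 members called between days 1 and 42, 983 kept their sign with normexp and 571 stayed called. With quantile normalization all 1028 kept it and 881 stayed called. Between days 7 and 14, 150 of 400 stayed called with normexp and 256 with quantile normalization. The cause of these changes was not tested. By design the 24-array filter held fewer probes and the omissions held fewer arrays. Probes near background limit what the dimmest members can show.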
